A study of Mus musculus with 4 samples.

Results

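DNA repair and damage checkpoint genes were followed in regulatory T cells (Treg), a class of CD4 T cell defined by Foxp3 that keeps other immune cells in check. The list held 36 genes named by pathway. Of the 22180 genes with a probe set that listed them alone, 32 were on this list, and each was represented by its brightest probe set. Rad54b and Fanca were on probe sets that also listed a second gene, and these as well as Xrcc2 and Rbbp8 are not analysed here.

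The 4 arrays came from mice of the strain labelled Foxp3Luci-DTR-4(B6 Albino). An agonistic antibody against death receptor 3 (DR3, encoded by Tnfrsf25) or a control antibody was given into the peritoneum, and CD4+Foxp3+GFP+ cells were sorted 4 days later, with 2 arrays per group. Age, sex, pooling of animals and what drives the reporter were not given in the labels, nor whether replicates were separate mice, so every p-value here reflects array-to-array spread that may be technical alone. The anti-DR3 replicates had a Pearson r of 0.992 and the control replicates one of 0.989 across the 12114 genes bright enough to be tested. Foxp3 was at 11.93 and 11.90 on the log2 scale after anti-DR3 and at 11.89 and 11.81 after control antibody, and Tnfrsf25 was at 7.63 and 7.50 against 7.46 and 7.33.

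Cells that copy their genome need these genes at several points. Homologous recombination, in which Brca1 and Brca2 act, repairs broken ends and broken forks from the sister chromatid, and the Fanconi anaemia proteins release forks stalled at crosslinks. End joining by the Ku proteins, Prkdc and Lig4 seals breaks in any phase of the cycle, and in lymphocytes it also joins antigen receptor segments. The kinases Atm and Atr sense breaks and stalled forks and pass the signal to Chek2 and Chek1, which hold the cycle. Many of these genes are transcribed under E2F factors as cells enter S phase.

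The promoters shown were picked with the differences known. They belong to the gene that rose (Atad5) and to a pair with large differences that did not pass or could not be tested (Chek2, Brip1). Bard1, which also holds an E2F core, had a larger difference than Chek2 and is not shown. A further pair are checkpoint genes with an E2F core whose differences were smaller and did not pass (Atm, Topbp1). Each promoter runs 5′ to 3′ on the strand of the gene from 170 bases before to 30 bases after the start site of RefSeq on GRCm38.p6. The capitals mark E2F cores on either strand.
Atad5, chr11:80089230-80089429, plus strand: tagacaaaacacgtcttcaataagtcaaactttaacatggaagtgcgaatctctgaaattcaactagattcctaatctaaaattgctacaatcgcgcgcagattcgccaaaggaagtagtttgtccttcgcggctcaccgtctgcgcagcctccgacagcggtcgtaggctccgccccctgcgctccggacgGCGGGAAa
Chek2, chr5:110839813-110840012, plus strand: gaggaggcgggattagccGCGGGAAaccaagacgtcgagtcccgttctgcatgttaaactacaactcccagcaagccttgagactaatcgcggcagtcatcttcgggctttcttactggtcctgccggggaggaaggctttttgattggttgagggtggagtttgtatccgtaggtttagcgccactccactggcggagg
Brip1, chr11:86201164-86201363, minus strand: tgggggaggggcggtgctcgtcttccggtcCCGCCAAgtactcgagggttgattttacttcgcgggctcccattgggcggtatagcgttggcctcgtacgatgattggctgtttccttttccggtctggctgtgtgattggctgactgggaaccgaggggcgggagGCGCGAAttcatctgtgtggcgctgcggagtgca
Atm, chr9:53536642-53536841, minus strand: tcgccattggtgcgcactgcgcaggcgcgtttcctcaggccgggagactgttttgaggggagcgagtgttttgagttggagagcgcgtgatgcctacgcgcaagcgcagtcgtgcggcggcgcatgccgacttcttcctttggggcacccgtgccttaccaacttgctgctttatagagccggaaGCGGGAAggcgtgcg
Topbp1, chr9:103305157-103305356, plus strand: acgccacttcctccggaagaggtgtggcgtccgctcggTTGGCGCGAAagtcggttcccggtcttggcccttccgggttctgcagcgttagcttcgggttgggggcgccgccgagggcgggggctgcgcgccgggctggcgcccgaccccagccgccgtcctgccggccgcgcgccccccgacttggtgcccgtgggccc

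E2F cores were counted as the letters TTGGCGC, the letters TTCGCGC, the letters TTCCCGC or the letters TTGGCGG on either strand within 250 bases before to 50 bases after a start site. In Topbp1 a pair of matches overlap, so the capitals form a single run there. Of the 36 repair genes 30 were matched in the promoter table, and 17 of them (56.7%) held a core, against 2569 of 17486 protein-coding genes (14.7%). The other repair genes listed below held one in 41 of 102 (40.2%). Genes of replication licensing and forks held one in 11 of 16 (68.8%), and mitosis genes in 3 of 13 (23.1%). The CHR element, counted as TTTGAA or TTCGAA, is a site of many mitotic promoters. It was found in 5 of 30 repair genes (16.7%) and in 20.2% of protein-coding genes, and in 9 of 13 mitosis genes (69.2%). The CCAAT box, counted as CCAAT, was found in 16 of 30 repair genes (53.3%) and in 42.3% of protein-coding genes. Other repair genes held it in 56.9%, replication genes in 68.8% and mitosis genes in 84.6%. A match describes the letters and does not show that a factor binds.

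Among the repair genes, Atad5 alone rose after anti-DR3, 0 fell, and 23 of the 24 tested did not pass. Most moved little: 21 of 24 (87.5%) differed by less than 0.25 on the log2 scale, as did 75.5% of all genes tested. A call required an adjusted p under 0.05 in limma with Benjamini-Hochberg adjustment over all 12114 genes, and 4.49% of these rose and 1.47% fell (348 rose and 243 fell in place of 544 and 178 once each array was centred on its median). The share of repair genes that rose, 4.17%, was therefore near the background. The remaining 8 measured genes were dim, meaning that fewer than 2 arrays exceeded the median of all probe sets, which lay between 5.33 and 5.39 on the log2 scale. The median difference of the 24 was 0.03, against 0.01 over all genes tested, and over all 32 measured it was 0.03, against -0.02 over all 22180 genes. The arrays of the groups did not overlap in 12 of the 24, 6 higher and 6 lower after anti-DR3, against 31.6% and 24.6% of all genes. Of the dim genes, Brca1, Brip1, Rad51ap1 and Eme1 were also higher without overlap, while Palb2, Rad54l, Fancb and Ung overlapped. The shares just given cover the 12114 genes tested, and none was computed over all dim genes, so these dim genes have no background here. Whatever the overlap, 16 of the 24 (66.7%) were higher after anti-DR3, against 52.4% of all genes tested. That count depended on the scaling. With each array centred on its median, Xrcc3, Exo1, Mus81, Xrcc5, Lig4 and Msh6 of the 16 were lower, and the median over all genes went from 0.01 to -0.05. Over all 32 measured 21 were higher, against 10184 of 22180. Among the 24, 5 higher and 1 lower lay under an unadjusted p of 0.05 in limma, against 16.6% and 9.57% of all genes. This split turned with the scaling, to 3 higher and 5 lower with each array centred on its median and to 5 higher and 4 lower with quantile normalization. Of the 5 higher, Bard1 and Chek2 were bright enough only through the anti-DR3 arrays.

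In sorted bulk cells, fewer cells that express a gene and less of its RNA per cell cannot be told apart. The proliferation marker Mki67 was at 9.38 and 9.39 on the log2 scale after anti-DR3 and at 7.50 and 7.71 after control antibody, a 3.44-fold rise (1.78 ± 0.099 SE, n = 2 arrays per group, adjusted p = 0.00606, limma). Mitosis genes rose in 10 of 12 tested with a median difference of 1.45, and genes of replication licensing and forks in 5 of 20 with a median of 0.35. The difference between these lists and the repair genes was not tested, and all of them rest on the same arrays.

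**Figure D1:**
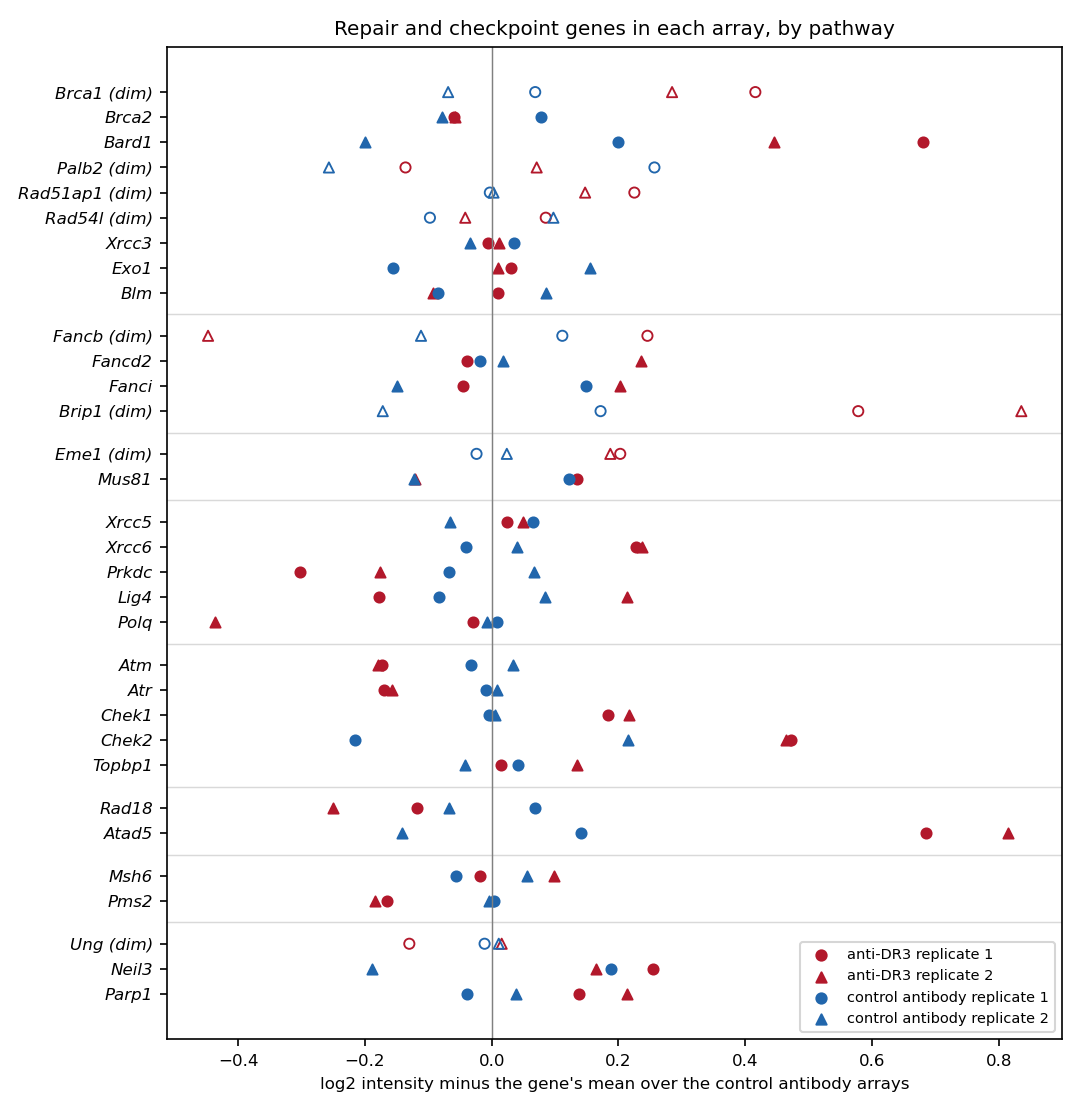
Each row is a repair gene and each point an array, with the log2 intensity less the gene's mean over the control antibody arrays on the horizontal axis. Red marks anti-DR3, blue control antibody, circles replicate 1, triangles replicate 2, and open symbols the 8 dim genes. Horizontal lines separate the pathways, and the red points of Atad5, Bard1, Chek2 and Brip1 lie farthest to the right.

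Damage tolerance held the gene that rose. Atad5 leads the clamp loader-like complex that takes PCNA off replicated DNA, and its log2 intensity was at 6.12 and 6.25 after anti-DR3 and at 5.57 and 5.29 after control antibody. Both anti-DR3 arrays lay above both controls, and the gap between groups exceeded the gap between replicates. The rise was 1.68-fold (0.75 ± 0.12 SE on the log2 scale, 95% interval 0.46 to 1.04, adjusted p = 0.0279, limma). The call was lost when any 1 array was left out, with adjusted p = 0.102 and 0.176 without anti-DR3 replicate 1 or 2 and 0.0502 and 0.0601 without control antibody replicate 1 or 2 (limma), while the difference ran from 0.61 to 0.89. Its promoter holds 1 core, which starts 23 bases into the transcribed part. Rad18, the ubiquitin ligase that marks PCNA at stalled forks, was at 7.74 and 7.60 after anti-DR3 and at 7.92 and 7.79 after control antibody. Its arrays leaned the other way without overlap, and the difference of -0.18 ± 0.094 did not pass (adjusted p = 0.279, limma).

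Homologous recombination had 5 genes tested and 0 called by limma. Under an unadjusted p of 0.05 in limma lay 1 of the 5, which was higher, against 16.6% of all genes tested. Bard1, the partner that forms a ubiquitin ligase with Brca1, was at 5.75 and 5.51 after anti-DR3 and at 5.27 and 4.87 after control antibody. The groups did not overlap, but the replicates lay apart as well, and the difference of 0.56 ± 0.15 missed the threshold (adjusted p = 0.0874, limma). With control antibody replicate 1 left out it was 0.76, and with replicate 2 of that group left out 0.36 (adjusted p = 0.0764 and 0.199, limma). Bard1 was also bright enough only through the anti-DR3 arrays, which by itself favours a difference in that direction.

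Brca1, which directs breaks toward recombination, was dim at 5.09 and 4.96 after anti-DR3 and at 4.74 and 4.60 after control antibody. Its groups did not overlap, with anti-DR3 higher by 0.35. Brca2, which acts after Brca1 in recombination, was at 5.47 and 5.48 against 5.61 and 5.46, and the groups overlapped. Palb2, which bridges Brca1 and Brca2, was dim and overlapped too, with a control range of 4.89 to 5.40 that held both anti-DR3 values.

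Xrcc3, which acts in recombination, lay between 6.15 and 6.22 on all 4 arrays and was the member with the smallest difference. Exo1, the nuclease that lengthens resected ends, was at 5.79 and 5.77 after anti-DR3, between the control values of 5.61 and 5.92. Blm, the helicase that dissolves crossed strands, ranged from 6.31 to 6.49 with overlap. For these genes the 95% intervals of the difference were -0.19 to 0.20, -0.27 to 0.31 and -0.28 to 0.19. Rad51ap1 and Rad54l, accessory factors of recombination, were dim, and Rad51ap1 was higher by 0.19 without overlap (4.83 and 4.76 against 4.61 and 4.61).

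In the Fanconi anaemia pathway the clamp genes Fancd2 and Fanci were tested and did not pass. Fancd2 was at 5.49 and 5.77 after anti-DR3 and at 5.51 and 5.55 after control antibody, and Fanci was at 5.49 and 5.74 against 5.69 and 5.39. In both, the anti-DR3 replicates lay farther apart than the group means. Brip1, a helicase that binds Brca1, had the second largest difference of all measured members. It was dim, at 5.29 and 5.55 after anti-DR3 and at 4.88 and 4.54 after control antibody, so the groups did not overlap and anti-DR3 was higher by 0.71. In a fit with no filter on dim genes it did not pass (adjusted p = 0.161, limma), nor did Brca1 (0.224). Fancb, a subunit of the core ligase, was dim and ranged from 4.05 to 4.74 with overlap.

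The end joining genes were all tested, and 0 of 5 were called by limma. Under an unadjusted p of 0.05 in limma lay 2 of them, 1 higher and 1 lower, against 16.6% and 9.57% of all genes tested. Xrcc6 and Xrcc5 encode the Ku subunits that grip a broken end. Xrcc6 was at 5.99 and 6.00 after anti-DR3 and at 5.72 and 5.80 after control antibody, with 0.23 ± 0.080 between the groups (adjusted p = 0.139, limma). Xrcc5 overlapped between 7.54 and 7.67 and differed by 0.04. Whether the Ku subunits differed from each other was not tested.

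Prkdc, the kinase that Ku recruits, was at 7.78 and 7.90 after anti-DR3 and at 8.01 and 8.15 after control antibody. Its arrays did not overlap and it had the lowest difference of the members, -0.24 ± 0.093 (adjusted p = 0.175, limma). Lig4, which seals the ends, overlapped, and its interval of -0.34 to 0.37 was among the wider ones. Polq, the polymerase of a separate end joining route that uses short homologies, was at 5.56 and 5.16 after anti-DR3 and at 5.60 and 5.58 after control antibody. The single low array, anti-DR3 replicate 2, set the difference of -0.23, and without it the value was -0.03.

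The sensor kinases were lower and the effector kinases higher after anti-DR3, but all of them missed the threshold and this split was not tested. Under an unadjusted p of 0.05 in limma lay 2 of the 5 checkpoint genes, both higher. Over all genes tested, 16.6% were higher and 9.57% lower under it. The groups did not overlap in 4 of the 5, against 56.1% of all genes tested. Atm, which senses double-strand breaks, was at 8.22 and 8.22 after anti-DR3 and at 8.36 and 8.43 after control antibody. Atr, which senses single-stranded DNA at forks, was at 7.35 and 7.37 against 7.52 and 7.53. Both were lower after anti-DR3 without overlap, by 0.18 ± 0.079 and 0.16 ± 0.077, and neither passed (adjusted p = 0.224 and 0.243, limma). A dimmer probe set of Atr gave -0.09.

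In both effector kinases the groups did not overlap. Chek1, which acts below Atr, was at 5.90 and 5.93 after anti-DR3 and at 5.71 and 5.72 after control antibody, a difference of 0.20 ± 0.077 (adjusted p = 0.173, limma). Chek2, which acts below Atm, was at 5.58 and 5.58 against 4.90 and 5.33. Its control arrays were far apart, and the difference of 0.47 ± 0.15 did not pass (adjusted p = 0.116, limma). With control antibody replicate 1 left out it was 0.25, and with replicate 2 of that group left out 0.68 (adjusted p = 0.210 and 0.0423, limma). Chek2, like Bard1, was bright enough only through the anti-DR3 arrays. Topbp1, which switches Atr on, overlapped between 8.54 and 8.72 with an interval of -0.14 to 0.29.

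Mismatch repair, base excision and the junction nuclease Mus81 held 0 calls in limma among 5 tested genes, and 0 of them lay under an unadjusted p of 0.05. Msh6, which recognises mismatches, was at 6.85 and 6.96 after anti-DR3 and at 6.81 and 6.92 after control antibody. Pms2, the nuclease subunit that acts next, was at 5.43 and 5.41 against 5.60 and 5.59. The replicates of Pms2 were close together and its groups did not overlap, yet the difference of -0.17 ± 0.077 did not pass (adjusted p = 0.217, limma).

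Parp1, which binds strand breaks and builds poly(ADP-ribose) chains, was at 8.07 and 8.15 after anti-DR3 and at 7.90 and 7.97 after control antibody, higher by 0.18 ± 0.083 (adjusted p = 0.245, limma). Neil3, a glycosylase of replicating cells, was at 5.75 and 5.66 against 5.68 and 5.31 and overlapped. Mus81, which cuts branched DNA, was at 6.69 and 6.43 after anti-DR3 and at 6.68 and 6.43 after control antibody. Its same-numbered arrays matched closely across groups, and the group means differed by 0.01. Ung, the uracil glycosylase, and Eme1, the partner of Mus81, were dim. Ung overlapped, and Eme1 was higher by 0.20 without overlap.

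**Figure D2:**
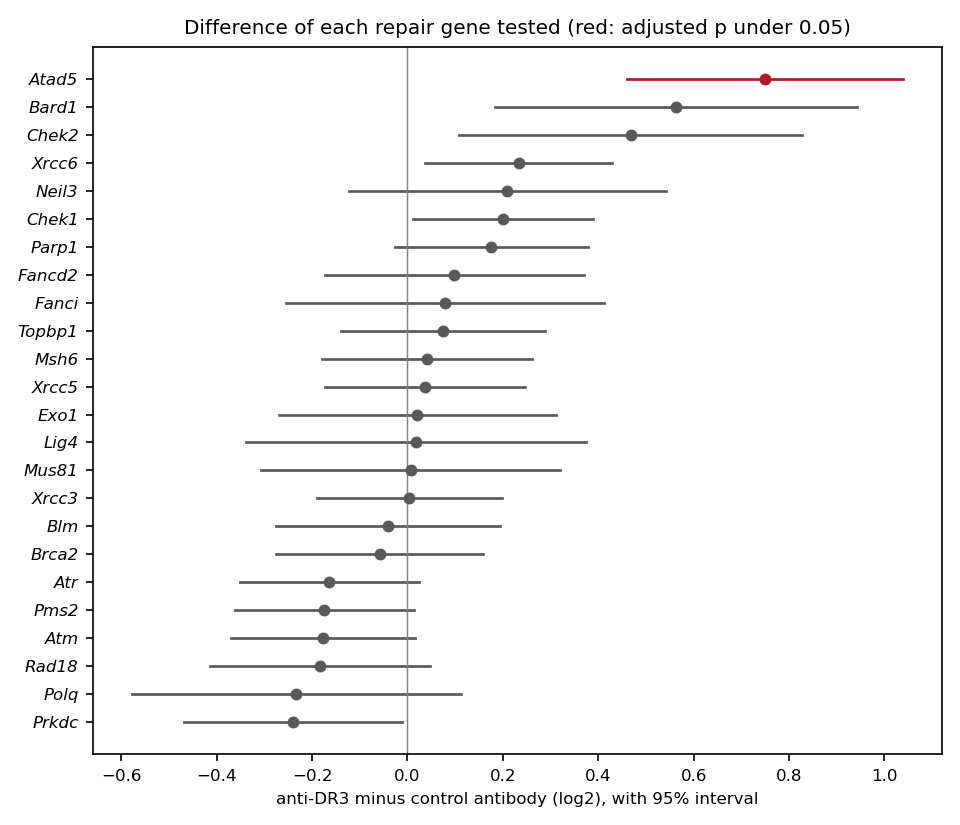
The difference between the groups (log2, anti-DR3 minus control antibody) is plotted for each of the 24 repair genes tested, with its 95% interval from limma. Atad5 in red is the gene past the adjusted threshold, and Bard1, Chek2, Xrcc6, Chek1 and Prkdc have intervals that leave out 0 before adjustment.

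The intervals reflect the spread between arrays, which may be technical alone, so they do not bound a change between animals. They cover the 24 genes tested and not the 8 dim ones. For 21 of 24 the 95% interval lay within a 1.5-fold difference in either direction, and for 23 within 2-fold. Over all genes tested this held for 10194 and 11806 of 12114. The genes outside 1.5-fold were Atad5, Bard1 and Chek2. These intervals are not adjusted for the number of genes.

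Members with an E2F core lay on both sides of 0. Of 13 tested members with a core in the promoter table, 9 were higher after anti-DR3, as were 5 of the 8 without one and 52.4% of all genes tested. These counts depended on the scaling. With each array centred on its median, Lig4 and Msh6 with a core and Xrcc3, Mus81 and Xrcc5 without one turned lower. Those with a core ranged from -0.23 to 0.75 and include Bard1 and Chek2, bright enough only through the anti-DR3 arrays. Those without ranged from -0.18 to 0.21. Whether these groups differed was not tested. Among the promoters printed above, Atad5 and Atm both hold GCGGGAA just inside the transcribed part, at 23 and 16 bases, and their differences were 0.75 and -0.18.

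Of 114 other repair and checkpoint genes tested, from a list of 134, 3 rose (2.63%) and 5 fell (4.39%). Over all genes tested 4.49% rose and 1.47% fell. The median difference of the 114 was 0.00, and 106 lay outside the threshold. H2ax, the histone variant that is phosphorylated around breaks, was at 8.38 and 8.14 on the log2 scale after anti-DR3 and at 7.31 and 7.19 after control antibody. It rose 2.02-fold (1.01 ± 0.11 SE, adjusted p = 0.0114, limma). Wee1, the kinase that restrains Cdk1, was at 6.70 and 6.81 against 6.09 and 6.02 and rose 1.63-fold (adjusted p = 0.0151, limma). Rpa1, of the complex that coats single-stranded DNA, rose by 0.40 at the edge of the threshold (adjusted p = 0.0499, limma), while a dim second probe set gave -0.13.

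The 5 that fell were Mdc1, Nbn, Recql, Smc6 and Zswim7. Mdc1, the adaptor that reads phosphorylated H2AX, was at 7.11 and 7.01 after anti-DR3 and at 7.58 and 7.68 after control antibody, and fell by 0.57 (adjusted p = 0.0259, limma). Nbn, which brings Atm to breaks, was at 7.18 and 7.12 against 7.56 and 7.60 and fell by 0.43 (adjusted p = 0.0389, limma). Recql, a helicase, Smc6, of a complex that resolves recombination structures, and Zswim7, an accessory factor of recombination, fell by 0.46, 0.45 and 0.43 (adjusted p = 0.0378, 0.0385 and 0.0405, limma). H2ax and Mdc1, which bind each other at breaks, therefore changed in opposite directions. In fits with 1 array left out, limma called 0 of these 8 except H2ax and Wee1 without control antibody replicate 2 (adjusted p = 0.0432 and 0.0498).

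**Figure D3:**
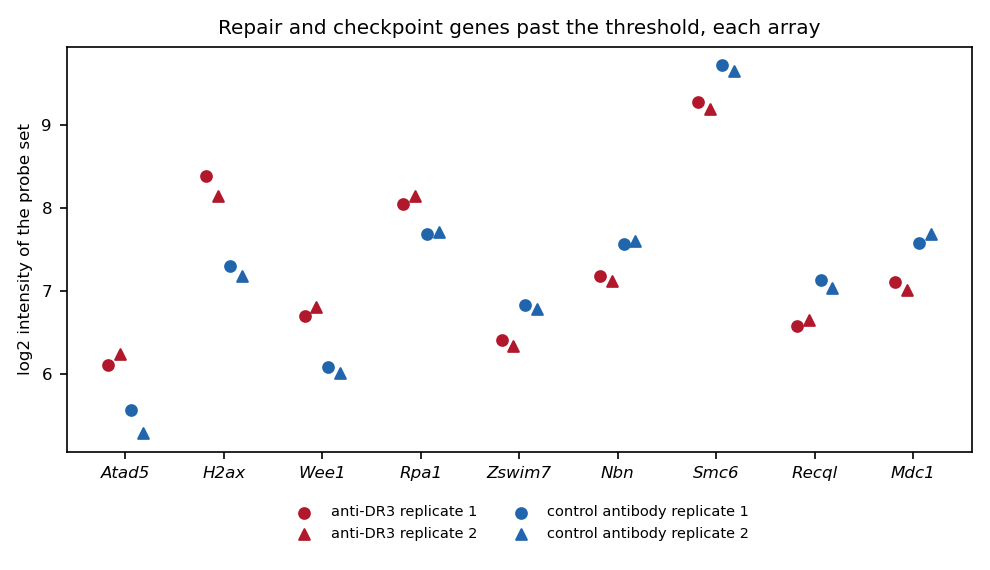
Log2 intensity of the probe set (vertical axis) is plotted for each array of Atad5 and of the 8 other repair and checkpoint genes past the threshold. Red marks anti-DR3, blue control antibody, circles replicate 1 and triangles replicate 2. In all 9 genes, which were selected by the threshold, the arrays of the groups do not overlap, as in 56.1% of all genes tested.

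Targets of p53, the transcription factor that Atm and Chek2 activate, had 0 calls among 17 tested by limma, with a median of 0.13. Under an unadjusted p of 0.05 in limma lay 10 of the 17, 8 higher and 2 lower, against 16.6% and 9.57% of all genes tested. The arrays of the groups did not overlap in 76.5% of the 17, against 56.1% of all genes tested. Cdkn1a, the Cdk inhibitor p21, was at 7.53 and 7.52 after anti-DR3 and at 7.07 and 7.19 after control antibody, a difference of 0.39 ± 0.084 (adjusted p = 0.0534, limma). It was named after its values were seen, as was Plk2, which differed the other way by -0.56 (adjusted p = 0.0938, limma).

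Of the markers of B cells, lymphocytes that could enter a sort, 3 were bright enough to be tested. After anti-DR3, 2 of these were higher and 1 lower, and 1 passed the threshold and rose. Summed intensities of 7 measured B cell markers reached 4252 and 4483 in the anti-DR3 arrays, against 2790 and 3019 in the controls. Ighm dominated these sums and rose 1.55-fold, while 4 of the 7, among them Ms4a1 and Pax5, were dim. Plasma cell sums over 4 markers, 2 of them dim, were 756 and 830 against 639 and 683. Germinal centre B cell sums over 3 markers, 1 of them dim, were 303 and 304 against 318 and 300. Summed T cell markers were 15027 and 14813 against 13687 and 13754, and neutrophil markers were dim in all 4 measured genes. Cd8b1, 1 of 3 CD8 T cell markers, and Csf1r, 1 of 7 monocyte and macrophage markers, also rose in limma, and were named after their values were seen. Of 12 measured Treg markers, Ikzf2 rose by 0.58, and Il2ra, Lrrc32 and Gpr83 had differences of -0.49, -0.62 and -1.09 and fell (adjusted p = 0.0193, 0.0441, 0.0228 and 0.0207, limma), while summed Treg markers were 13486 and 13716 against 13434 and 12581. The part of these markers in the repair genes was not tested.

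**Figure D4:**
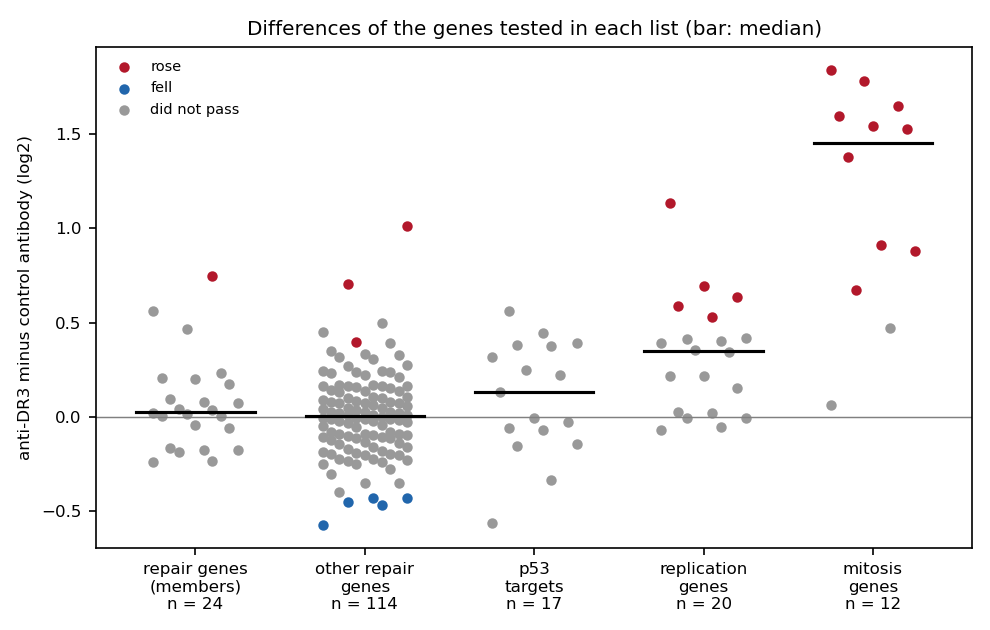
Each point is a gene tested, by list, with its difference (log2, anti-DR3 minus control antibody) on the vertical axis and the list's median as a black bar. Red genes rose, blue genes fell and grey genes did not pass in limma. The medians are 0.03 for repair genes, 0.00 for other repair genes, 0.13 for p53 targets, 0.35 for replication genes and 1.45 for mitosis genes, and Polk is plotted under other repair genes and p53 targets.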

How the data were processed

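RNA of sorted mouse Treg was measured on 4 Affymetrix whole-transcript arrays. The authors deposited one linear intensity for each probe set, summarised by RMA (robust multi-array average), per the submitters' processing notes. Software version and annotation build: not given in the sources used here. RMA brings arrays to a shared distribution, which can hide a change common to all genes. Array medians of 40.2 to 42.0 place the values on a linear scale, so log2 was taken.

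Of 41345 probe sets, 23521 listed 1 gene symbol, 1814 several and 16010 none. The brightest probe set stood for a gene. Genes above the array median on at least 2 of 4 arrays were tested (12114), and 10066 were set aside as dim. The test was limma 3.58.1 under R 4.3.3 (lmFit, eBayes, two-sided, 2 residual and 3.94 prior degrees of freedom), adjusted by Benjamini-Hochberg at 0.05. An exact permutation test of 2 against 2 arrays cannot go below p = 0.333. The number of arrays limits the precision. The code was tested on simulated data. Figures used matplotlib 3.10.9.

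The members, lists and tests were chosen with earlier results of these data known. All members, other repair genes past the threshold, Tnfrsf25, Foxp3 and Mki67 were named by rule. Promoters came from RefSeq on GRCm38.p6. Alternatives covered the replicate block, each array left out, filter, normalization, pseudocount, variance model, weights, probe sets and threshold.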

Additional observations from a re-analysis of the deposited data

How the results depend on the processing

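The repair genes' median difference ran from -0.032 to 0.059 over the alternatives, against 0.029 in the main fit. The replicate block, variance models, weights, single probe sets and thresholds could not move it. Every move was under 0.08, the SD between replicate arrays of their median level, which is a spread of levels and not of a difference. That SD exceeds the median of 0.03 itself, and the sign of the median was not fixed. It was -0.012 without anti-DR3 replicate 2, -0.017 with the stricter filter and -0.032 with each array centred on its median. The count of repair genes that rose was 1; it was 0 without the filter on dim genes, 0 under a stricter filter (Atad5 was then not tested), 0 with an ordinary linear model and 2 (Atad5 and Bard1) with an adjusted p under 0.10. With the replicate block, 2 repair genes rose, the same pair (Bard1 at adjusted p = 0.0439, limma), and 1 other repair gene fell. Replicate numbers are not said to pair arrays, and the replicate 1 minus 2 differences of the groups had r = 0.051 across genes, from 2 pairs only. With 1 array left out in turn, the call of Atad5 was lost in every fit, and its difference ran from 0.61 to 0.89. The difference of Chek2, which did not pass with all arrays, ran from 0.25 to 0.68 in the fits that tested it. Of other repair genes 3 rose and 5 fell; 0 and 0 did so with no filter and with an ordinary linear model, 9 and 8 with an adjusted p under 0.10, 8 rose with the stricter filter, 6 with log2 of the value plus 16 and 6 with a trended robust prior, and 0 fell when a 1.5-fold difference was also required. The causes were not tested.

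Over the repair genes and alternatives, 357 values kept their sign and call, 6 were no longer called, 3 became called and 24 turned sign, all of the last in genes that did not pass. The replicate block, the filters, the variance models, weights, single probe sets and thresholds leave the difference of a gene as it was. Its sign could not turn in these alternatives, so the tallies here do not measure how stable the signs are. With arrays centred on the median, Xrcc3, Exo1, Mus81, Xrcc5, Lig4 and Msh6 gave -0.057, -0.040, -0.054, -0.024, -0.043 and -0.020, and with quantile normalization Mus81 and Xrcc5 gave -0.0076 and -0.0098. With 1 array left out, sign changes gave ranges of -0.14 to 0.019 for Brca2, -0.13 to 0.18 for Exo1, -0.031 to 0.038 for Xrcc3, -0.13 to 0.044 for Blm, -0.038 to 0.24 for Fancd2, -0.070 to 0.23 for Fanci, -0.12 to 0.13 for Mus81, -0.029 to 0.10 for Xrcc5, -0.18 to 0.21 for Lig4 and -0.018 to 0.099 for Msh6. For the other repair genes called, 74 values passed again, 62 did not and 0 turned sign. Genes near the array median were measured at low signal, and 2 arrays a group limit what can be resolved.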
